A study of Mus musculus with 6 samples.

Results

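The RNA of 35 genes of the unfolded protein response and of ER-associated degradation (ERAD) was compared between STING KO and control cells of L929, an established line of mouse fibroblasts. The genes were taken by symbol from a set of 36 that had been named for their function, with no measured value in the rule, and they make up 35 of the 27507 gene identifiers in the deposited table. The member Vimp had no row under that symbol, and the row of Selenos, the current name of the same gene, is given beside the 35 without being counted. The series holds poly(A) RNA-seq of 3 libraries whose genotype is labelled STING KO and of 3 control libraries labelled WT, all from L929, with no treatment named. The libraries held 14382072 to 14526606 normalized counts each, which are gene counts that the authors divided by a size factor of each library. Whether the knockout is a clone or a pool, and which part of the gene it removes, is not given in the sources used here. The labels do not state that the replicates were grown separately, and the p-values may therefore reflect technical spread alone.

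The labels were checked first on the STING gene itself, listed under its older symbol Tmem173. It stood at 82.1, 80.6 and 93.4 normalized counts in the STING KO libraries, against 329.5, 313 and 311 in the control libraries (log2 fold change -1.90, SE 0.09, limma adjusted p = 9.72e-06). No STING KO library reached the control range. The collagen genes Col1a1 and Col1a2, which mark fibroblasts, averaged 11835 and 28525 normalized counts in STING KO and 10856 and 27040 in control. The fibroblast markers Dcn, Lum, Postn, Fap and Twist1 were under the minimum for testing. Transcripts typical of hepatocytes summed to 5569 in STING KO replicate 1 and to 5864 in control replicate 3, against 275 to 721 in the other libraries, and their part in the results was not tested. The values without those 2 libraries are given where they bear on a result.

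The unfolded protein response adjusts the folding capacity of the endoplasmic reticulum (ER) to its load. Unfolded proteins draw the HSP70 chaperone BiP away from the sensors IRE1, PERK and ATF6. IRE1 splices the mRNA of the transcription factor XBP1, PERK phosphorylates the translation factor eIF2 and so favours ATF4 and CHOP, and ATF6 is cleaved in the Golgi to free its transcription factor domain. ATF6 and XBP1 induce chaperones, disulfide enzymes and the ERAD machinery, which carries misfolded proteins back to the cytosol for the proteasome. STING is itself a membrane protein of the ER that leaves for the Golgi once it has bound a cyclic dinucleotide. Fibroblasts secrete collagen and other matrix proteins through this folding machinery. Gene counts measure the amount of each mRNA, and neither XBP1 splicing, eIF2 phosphorylation nor ATF6 cleavage can be read from them.

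The promoter element through which ATF6 and XBP1 act, the ER stress response element (ERSE), pairs a CCAAT box with a CCACG motif, and it was used to group the genes by sequence alone. ERSE was searched as CCAAT and CCACG with 9 bases of any kind between them, and ERSE-II as ATTGG and CCACG with 1 base between them, on both strands of RefSeq promoter windows (GRCm38.p6) that run from 250 bases before to 50 after the start site. Of the 35 genes, 28 were matched to a window, 10 held ERSE and 2 held ERSE-II, with no window holding both. Over all 32851 windows, 0.119% held ERSE and 0.0365% held ERSE-II. A match describes the letters in a window and does not show that a factor binds there. The stretches below are shown for 6 genes, of the chaperones, the disulfide enzymes and ERAD, read 5′ to 3′ along the gene, with the fixed letters of the element in capitals and 15 bases on each side.
Hspa5: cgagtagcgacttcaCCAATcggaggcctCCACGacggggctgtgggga
Calr: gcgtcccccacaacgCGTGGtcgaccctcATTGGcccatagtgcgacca
Pdia6: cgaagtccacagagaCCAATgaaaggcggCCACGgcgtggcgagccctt
Ero1lb: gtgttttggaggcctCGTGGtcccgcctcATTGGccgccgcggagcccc
Syvn1: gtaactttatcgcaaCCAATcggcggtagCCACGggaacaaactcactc
Herpud1: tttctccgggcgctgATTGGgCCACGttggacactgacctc

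In Calr and Ero1lb the element lay on the opposite strand, so it reads CGTGG before ATTGG, and in Herpud1 it was ERSE-II. The stretches lie at chr2:34772010-34772058 on the plus strand for Hspa5, chr8:84847060-84847108 on the minus strand for Calr and chr12:17266476-17266524 on the plus strand for Pdia6. They lie at chr13:12565667-12565715 for Ero1lb, chr19:6046517-6046565 for Syvn1 and chr8:94386362-94386402 for Herpud1, all on the plus strand. The element of Hspa5 began 65 bases before the start site, that of Pdia6 98 and that of Ero1lb 201 bases before it. The other genes with ERSE were Canx, Creld2, Dnajc3, Derl3 and Hsp90b1, with 2 copies in Hsp90b1, and the other gene with ERSE-II was Dnajb11.

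None of the genes was called higher or lower in STING KO. Of the 35 genes, 34 passed the minimum of 10 normalized counts in at least 3 libraries, and limma called 0 of these 34 at an adjusted p at or under 0.05, where it called 0.258% of all 12408 genes tested. The exception to the minimum was Derl3, a derlin of secretory cells, at 7.92, 3.98 and 9.04 normalized counts in STING KO and 9.98, 7.98 and 8.94 in control. The log2 fold changes (STING KO over control) ran from -0.23 to 0.19 with a median of 0.018, against a median of -0.003 over all genes tested. These limits moved with single libraries, to -0.35 and 0.29 without STING KO replicate 2, to -0.35 and 0.25 without control replicate 2, to -0.14 and 0.15 when STING KO replicate 3 was dropped, and to -0.16 and 0.13 when control replicate 3 was. A positive sign was found for 18 of the 34 genes, where 49.2% of all genes tested had one, and a negative sign for 16. At an unadjusted limma p at or under 0.05 there were 2 of 34, P4hb with a higher and Ppp1r15b with a lower level, where 6.37% of all genes tested had such a p. limma-voom also called 0 and gave 2 at that unadjusted p. The number at that unadjusted p ran from 0 to 7 when 1 library was left out, with 0 without control replicate 3, 1 without STING KO replicate 1, STING KO replicate 3 or control replicate 1, 6 once STING KO replicate 2 was dropped and 7 once control replicate 2 was. It was 0 with the replicate block and without the 2 libraries that hold hepatocyte transcripts, and 1 under TMM scaling. It was 3 under upper-quartile scaling and 5 with the correction for length and GC content given further on. Without both STING KO replicate 3 and control replicate 2 it was 9. The share of all genes tested with such a p was taken from the main fit alone. The authors' deposited table called 0 of 35, where it called 0.294% of the genes to which it gives an adjusted p, and Ppp1r15b and P4hb had unadjusted p of 0.0116 and 0.0435 in it.

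The intervals were narrow. The 95% interval of the fold change lay within 1.5-fold in both directions for all 34 genes, where this held for 85.4% of all genes tested. The lowest bound was a fold of 0.695, for Edem3, and the highest was 1.34, for Sec61b. The groups did not overlap for 5 of the 34, where 12.1% of all genes tested had groups without overlap. Higher in STING KO were 4 (Hsp90b1, P4hb, Pdia3 and Ero1lb), beside 5.76% of all genes tested, and lower was 1 (Ppp1r15b), beside 6.32%. In bulk RNA, fewer cells that express a gene and less RNA per cell cannot be told apart.

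**Figure D1:**
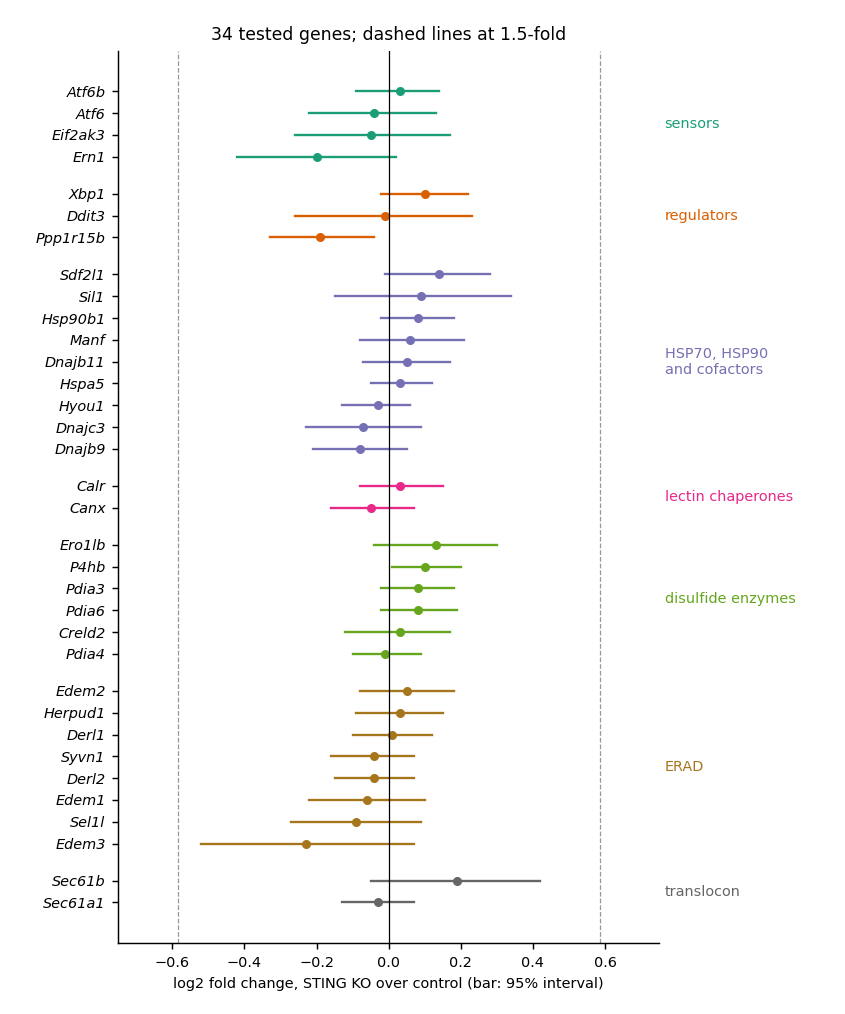
Difference of STING KO from control as log2 fold change (x axis) for the 34 tested genes, grouped by arm, with the limma estimate as a point and its 95% interval as a bar. Every interval lies inside the dashed lines at 1.5-fold, and all but those of P4hb and Ppp1r15b include 0.

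Levels differed between the genes by orders of magnitude in both genotypes, also within an arm. Compared per kilobase of the longest basic transcript of each gene, which removes the effect of length on counts, Calr was highest at 16039 normalized counts per kilobase over the 6 libraries, followed by Hspa5 (12180), P4hb (10582) and Hsp90b1 (9759). These 4 and the disulfide isomerase genes Pdia3 and Pdia6 were above the 99th percentile of all genes tested. Of the sensor genes, Ern1 was at 94.8, Atf6 at 160.4 and Eif2ak3 at 195.9 normalized counts per kilobase, the 36.5, 49.3 and 54.7 percentiles. Atf6b was higher, at 788.1, above Dnajc3 (636.5), Dnajb9 (417.8) and Sil1 (154.7) of the chaperones and cofactors. The oxidase gene Ero1lb was the lowest tested gene, at 59.2. The summed normalized counts of the 35 genes were 262465, 266218 and 269572 in STING KO and 256824, 262048 and 259167 in control. As a share of all counts this was 1.84 ± 0.0203% in STING KO and 1.79 ± 0.0127% in control (SD, n = 3 each). The sums of the groups did not overlap under the authors' scaling or upper-quartile scaling. They did under TMM scaling, by which STING KO replicate 1 held 258586 and control replicate 2 held 262626.

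**Figure D2:**
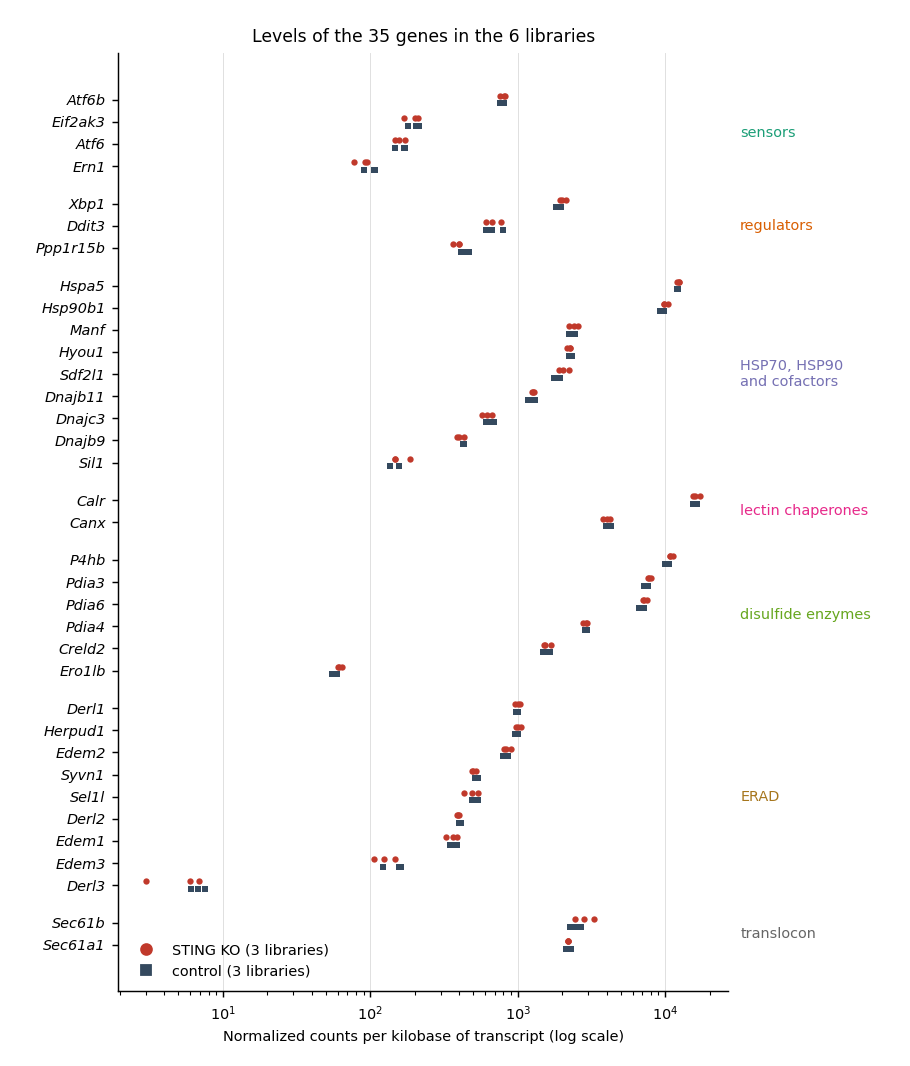
Normalized counts per kilobase of transcript (x axis, log scale) of the 35 genes in the 3 STING KO libraries (circles, upper row of each gene) and the 3 control libraries (squares, lower row). Calr, Hspa5, P4hb and Hsp90b1 lie farthest right (Calr averages 16039). The sensor genes Ern1, Atf6 and Eif2ak3 lie far to their left (Ern1 averages 94.8), with Atf6b between them. Derl3 is lowest at 6.04, and STING KO and control lie close together in each row.

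The sensor genes had 0 of 4 called, with 1 positive and 3 negative signs. Ern1, which encodes the kinase and RNase IRE1, was at 643, 657 and 538 normalized counts in STING KO, against 746, 626.5 and 741 in control. Control replicate 2 lay below 2 of the STING KO libraries, so the groups overlapped (log2 fold change -0.20, SE 0.10, limma adjusted p = 0.738). The log2 fold change of Ern1 was -0.11 without STING KO replicate 3 and -0.28 without control replicate 2. Atf6, the gene of the cleaved transcription factor, was at 1129, 1240 and 1067 in STING KO, against 1233, 1066 and 1240 in control (log2 fold change -0.04, SE 0.08). Eif2ak3, which encodes PERK, was at 902, 952 and 759 in STING KO, against 922, 812 and 960 in control (log2 fold change -0.05, SE 0.09). In all of Ern1, Atf6 and Eif2ak3 the lowest libraries of the groups were STING KO replicate 3 and control replicate 2. Atf6b, a relative of ATF6, had the most counts of the sensor genes, with 2090, 1959 and 2073 in STING KO and 2058, 1955 and 1999 in control (log2 fold change 0.03, SE 0.05).

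The regulators downstream of the sensors also had 0 of 3 called. Xbp1, whose mRNA IRE1 splices, was at 4255, 4110 and 4499 normalized counts in STING KO, against 3893, 4211 and 3901 in control. Control replicate 2 lay above STING KO replicate 2 (log2 fold change 0.10, SE 0.05, limma adjusted p = 0.738, and 0.06 without STING KO replicate 3). Ddit3, which encodes the stress factor CHOP, was at 593, 546 and 686 in STING KO, against 545, 701 and 598 in control. The highest and the lowest of its 6 values were both in control libraries (log2 fold change -0.01, SE 0.11, 95% interval of the fold 0.836 to 1.17). Ppp1r15b encodes the constitutive subunit that directs a phosphatase to eIF2, and it had the smallest unadjusted p of the 34 genes. It stood at 2218, 2236 and 2041 in STING KO, against 2462, 2299 and 2627 in control. Every STING KO value was below every control value, and the mean was 87.9% of control (log2 fold change -0.19, SE 0.06, unadjusted p = 0.0159, limma adjusted p = 0.732). The gene lies at chr1:133131143-133139783 (GRCm38), and of its exon bases 11.4% are shared with a gene annotated on the opposite strand, Gm26616, and the strand setting of the counting is not given in the sources used here.

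**Figure D3:**
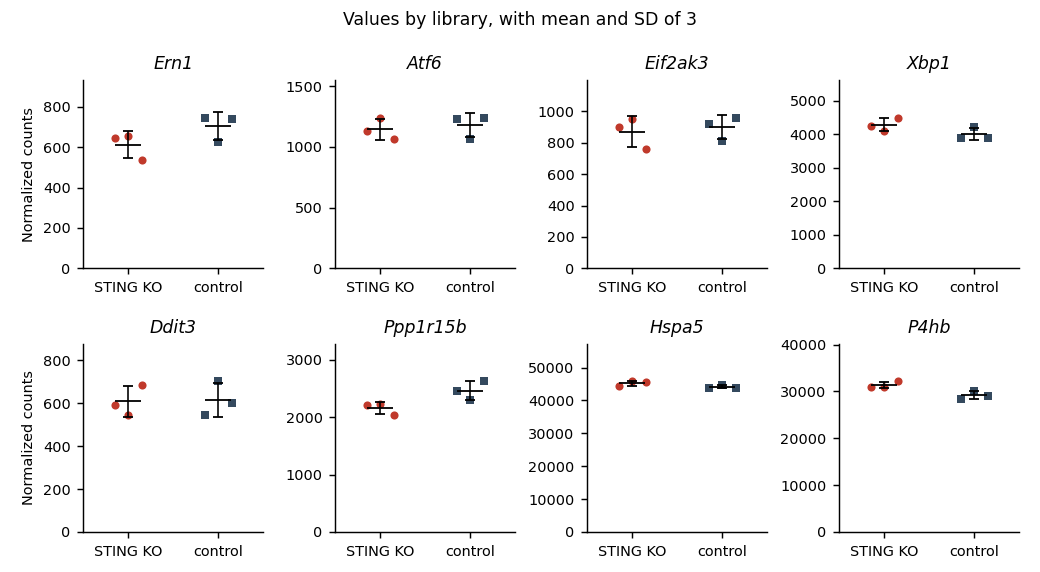
Normalized counts (y axis, from 0) of 8 sensor, regulator and folding genes in each STING KO library (circles) and control library (squares), with the mean and SD of 3 as black bars. The groups overlap for Ern1, Atf6, Eif2ak3, Xbp1, Ddit3 and Hspa5, and they do not for Ppp1r15b and P4hb.

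Of the HSP70 and HSP90 chaperones and their cofactors, 0 of 9 were called, 6 had a positive sign and 3 a negative sign. Hspa5, which encodes BiP and carries ERSE, was at 44352, 45805 and 45633 normalized counts in STING KO, against 43884, 44801 and 43869 in control. The groups overlapped, and the mean was 102% of control (log2 fold change 0.03, SE 0.04, 95% interval of the fold 0.964 to 1.09). Sdf2l1, a BiP cofactor, was at 2228, 2106 and 2455 in STING KO, against 2050, 2152 and 1966 in control, with control replicate 2 above STING KO replicate 2 (log2 fold change 0.14, SE 0.07, limma adjusted p = 0.738, and 0.08 without STING KO replicate 3). Hsp90b1, which encodes the ER form of HSP90 and carries 2 copies of ERSE, had groups without overlap, at 27716, 29458 and 27837 in STING KO against 26551, 26210 and 27641 in control. STING KO replicate 1 and control replicate 3 lay almost together (log2 fold change 0.08, SE 0.04, limma adjusted p = 0.738), and 10.3% of its exon bases are shared with 1810014B01Rik on the opposite strand. The other members had log2 fold changes between -0.08 for Dnajb9, a J protein that serves BiP, and 0.09 for Sil1, its nucleotide exchange factor. Manf, Dnajb11, Hyou1 and Dnajc3 lay between them. Summed, this arm held 97412, 100471 and 98852 normalized counts in STING KO and 95643, 96417 and 96551 in control. These sums did not overlap under the authors' scaling or upper-quartile scaling but did under TMM scaling.

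The lectin chaperone genes, calreticulin and calnexin, had 0 of 2 called. Calr was at 34755, 33833 and 37758 normalized counts in STING KO, against 34004, 35953 and 33868 in control (log2 fold change 0.03, SE 0.05). Canx, whose product holds glycoproteins at the ER membrane, averaged 17254 ± 928 in STING KO and 17795 ± 676 in control (SD, n = 3 each). In both genes the groups overlapped.

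The disulfide enzymes had 0 of 6 called and 5 of 6 positive, at a median log2 fold change of 0.081. All 6 were positive under upper-quartile scaling, without STING KO replicate 1, without control replicate 2 and without the 2 libraries that hold hepatocyte transcripts. Only 4 were positive without STING KO replicate 3, without control replicate 3 or with the correction for length and GC content given further on. P4hb, the gene of protein disulfide isomerase at chr11:120560298-120573253 (GRCm38), was at 30862, 31012 and 32157 normalized counts in STING KO, against 28353, 30169 and 29101 in control. Every STING KO value was above every control value, and the mean was 107% of control (log2 fold change 0.10, SE 0.04, unadjusted p = 0.0393, limma adjusted p = 0.738). Pdia3, the isomerase that works with calnexin and calreticulin, averaged 21607 ± 562 in STING KO and 20449 ± 657 in control (SD, n = 3 each; log2 fold change 0.08, SE 0.04). Ero1lb, an oxidase that recharges these isomerases, was at 271, 260 and 256 in STING KO, against 238, 250.4 and 231.5 in control. Its groups did not overlap, with STING KO replicate 3 just above control replicate 2 (log2 fold change 0.13, SE 0.07, limma adjusted p = 0.738). Pdia4 had a log2 fold change of -0.01 (SE 0.04), with a 95% interval of the fold of 0.931 to 1.07, and Pdia6 and Creld2 had log2 fold changes of 0.08 and 0.03. Summed, the disulfide enzymes held 76434, 77245 and 80256 normalized counts in STING KO and 71965, 76400 and 72956 in control. These sums do not overlap under the authors' scaling or upper-quartile scaling. They do under TMM scaling, with 75304 in STING KO replicate 1 and 76569 in control replicate 2.

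ERAD genes had 0 of 8 tested members called, with 3 positive and 5 negative signs. Edem3, a mannosidase that marks glycoproteins for removal, had the most negative log2 fold change of the 34 genes. It was at 778, 936 and 666 normalized counts in STING KO, against 985, 773 and 1016 in control. The groups overlapped, with means of 793 ± 136 in STING KO and 925 ± 132 in control (SD, n = 3 each; log2 fold change -0.23, SE 0.13, limma adjusted p = 0.738). The log2 fold change of Edem3 was -0.11 without STING KO replicate 3, -0.15 without control replicate 3 and -0.35 without either STING KO replicate 2 or control replicate 2. Sel1l, the scaffold of the ERAD ubiquitin ligase, was at 3092, 3389 and 2727 in STING KO, against 3330, 3061 and 3388 in control (log2 fold change -0.09, SE 0.08, and -0.009 without STING KO replicate 3). Again STING KO replicate 3 and control replicate 2 were the lowest libraries of the groups. Derl1, a channel protein and the ERAD member with the most counts, was at 3208, 3054 and 3312 in STING KO, against 3203, 3195 and 3104 in control (log2 fold change 0.01, SE 0.05). Herpud1, an ERAD component with ERSE-II, averaged 1966 ± 91.5 in STING KO and 1920 ± 50.5 in control (SD, n = 3 each), and Syvn1, the ligase HRD1 with ERSE, averaged 1744 ± 57.7 in STING KO and 1796 ± 46.4 in control. Edem1, Edem2 and Derl2 had log2 fold changes of -0.06, 0.05 and -0.04. Selenos, which links derlins to the ATPase p97, averaged 2332 ± 38.3 in STING KO and 2204 ± 73.1 in control (SD, n = 3 each; log2 fold change 0.08, SE 0.05, limma adjusted p = 0.738).

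The translocon genes, through which proteins enter the ER, had 0 of 2 called. Sec61b, the small beta subunit, had the most positive log2 fold change of the 34 genes, at 1586, 1371 and 1848 normalized counts in STING KO against 1404, 1518 and 1279 in control. STING KO replicate 2 lay below control replicates 1 and 2 (log2 fold change 0.19, SE 0.10, limma adjusted p = 0.738). The log2 fold change of Sec61b was 0.08 without STING KO replicate 3, 0.12 without control replicate 3, and it was 0.29 without STING KO replicate 2. Sec61a1, the pore subunit, was at 6966, 6927 and 6898 in STING KO, against 7237, 6789 and 7249 in control (log2 fold change -0.03, SE 0.04).

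Grouped by promoter, both the genes with and those without the element had log2 fold changes on either side of 0. The 11 tested members with ERSE or ERSE-II had a median of 0.034, with 8 positive and 3 negative signs and a range of -0.07 to 0.13. The 16 tested members with a window and neither element had a median of -0.010, with 7 positive and 9 negative signs. A further 16 tested genes outside the set carried an element and had a median of -0.038. Of these 27 genes with an element 0 were called, and the lowest limma adjusted p was 0.738.

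The sign of the fold change followed transcript length. Of the 11 tested members with a transcript over 4000 bases 10 had a negative sign, Ero1lb being the exception, while of the 13 under 2500 bases 10 had a positive sign. Across the 34 genes, log2 fold change and length had a Spearman rho of -0.70, and across 12406 genes tested rho was -0.40. Over all genes tested, 73.6% of those over 4000 bases had a negative sign and 69.7% of those under 2500 bases a positive one. These length classes were chosen after the values were seen, and genes within a library share its depth and preparation, so rho is given as a description.

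**Figure D4:**
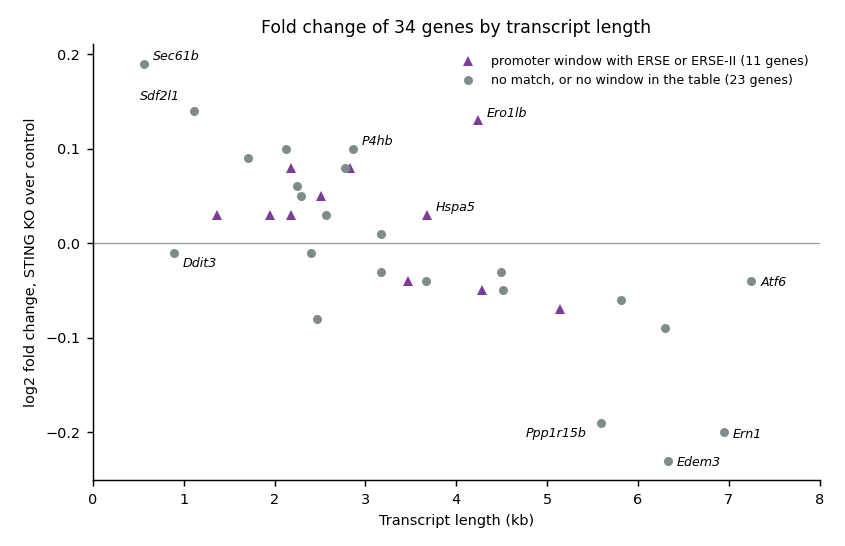
Difference of STING KO from control as log2 fold change (y axis) against the length of the longest basic transcript (x axis, kb) for the 34 tested genes, with triangles for a promoter window that holds ERSE or ERSE-II. Long genes such as Edem3, Ern1 and Ppp1r15b lie lowest and short ones such as Sec61b and Sdf2l1 highest, and triangles occur on both sides of 0.

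The same relation was present between replicates of 1 genotype. Taking each library's deviation from the mean of its own group, rho with length over the 34 genes was 0.52, 0.85 and -0.91 in STING KO replicates 1, 2 and 3, and 0.71, -0.88 and 0.73 in control replicates 1, 2 and 3. Over the 12406 genes the same values were 0.21, 0.42 and -0.47 in the STING KO replicates and 0.25, -0.45 and 0.35 in the control replicates, of the same sign and nearer to 0. STING KO replicate 3 and control replicate 2 thus had lower values of long and higher values of short transcripts than the other libraries of their groups. All 11 long members lay below the group mean in STING KO replicate 3, and 10 of 11 did in control replicate 2. Deviations reached -0.24 for single genes in STING KO replicate 3 and -0.25 in control replicate 2. The most negative log2 fold change between the genotypes was -0.23, for Edem3. It is a difference between means of 3 libraries, an unlike measure with less spread than the deviation of 1 library. Without STING KO replicate 3, rho between fold change and length was -0.24 over the 34 genes and -0.17 over all genes tested. Without both STING KO replicate 3 and control replicate 2 it was -0.66 over the 34 genes and -0.35 over all genes tested.

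**Figure D5:**
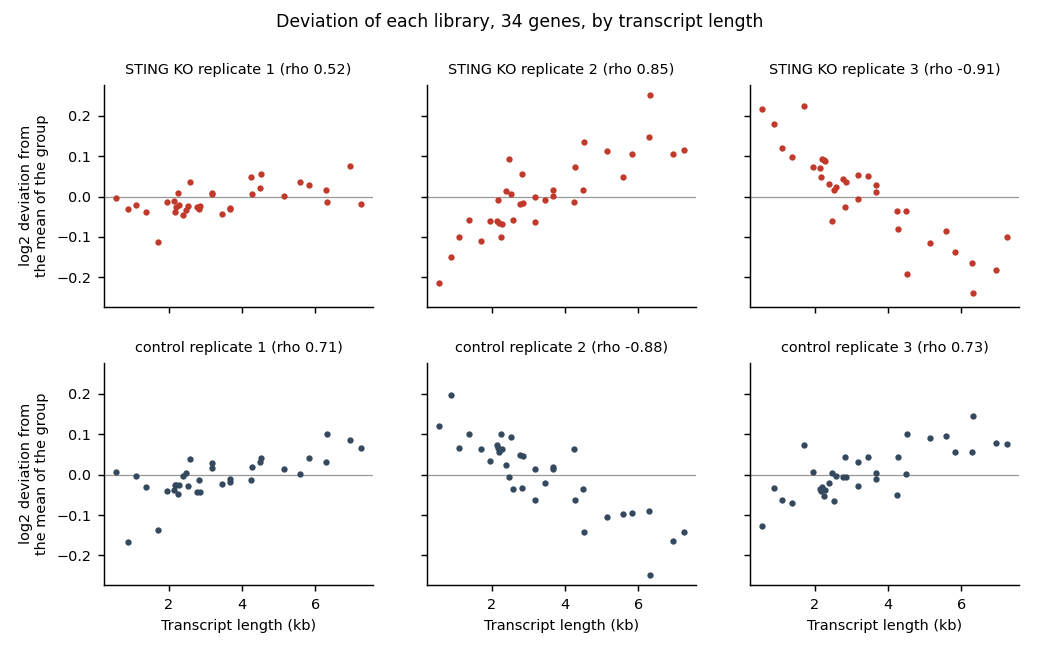
Log2 deviation of each library from the mean of its own group (y axis) against transcript length (x axis, kb) for the 34 tested genes, with STING KO libraries above and control libraries below. STING KO replicate 3 and control replicate 2 slope downward (rho -0.91 and -0.88), and the other 4 libraries slope upward.

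With each library corrected for length and GC content, 0 of the 34 genes were called and the lowest limma adjusted p was 0.341, for Ppp1r15b. Its log2 fold change was -0.13 (unadjusted p = 0.00633), against -0.19 without the correction. The log2 fold changes of Edem3, Ern1 and Sec61b were then -0.14, -0.14 and 0.12. Those of Ero1lb and Hsp90b1 were 0.19 and 0.10, and rho with length was -0.29 over the 34 genes and -0.04 over all genes tested. Without STING KO replicate 3 and control replicate 2, 0 of 34 were called in a fit of 2 libraries against 2, and Ppp1r15b was closest at -0.19 (limma adjusted p = 0.0566). Without the 2 libraries that hold hepatocyte transcripts, 0 of 34 were called and the lowest limma adjusted p was 1 after rounding. There Ppp1r15b was at -0.16 and P4hb at 0.11.

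Genes of 12 other lists of ER function gave 0 calls as well, of 136 tested members. Their median log2 fold change was 0.011, with 75 positive and 61 negative signs. An unadjusted limma p at or under 0.05 was found for 6 of the 136, where 6.37% of all genes tested had one. Each of the 6 had a positive sign. Of all 12408 genes tested, 397 had such a p with a positive sign and 394 with a negative sign. The smallest unadjusted p was that of Fkbp10, a proline isomerase for collagen (log2 fold change 0.42, SE 0.12, limma adjusted p = 0.533). It was at 113, 101 and 122.5 normalized counts in STING KO, against 80.9, 88.8 and 80.5 in control. The groups of Fkbp10 did not overlap, yet the gene was not called. The other 5 were Sec61g, the small gamma subunit of the translocon (0.21), Tusc3, an oxidoreductase subunit of the oligosaccharyltransferase (0.17), and Nupr1, a stress-induced gene of the PERK output list (0.17), with Col6a1, a collagen chain and IRE1 decay substrate in the list (0.11), and Calcoco1, an ER-phagy receptor (0.15), each as a log2 fold change.

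Of the PERK output, 0 of 9 tested genes were called, with 7 positive and 2 negative signs. Atf4, the transcription factor of this branch, was at 9531, 9298 and 9877 normalized counts in STING KO, against 9404, 9733 and 9266 in control (log2 fold change 0.02). Ppp1r15a, the stress-induced relative of Ppp1r15b, averaged 679 ± 32.6 in STING KO and 685 ± 52.1 in control (SD, n = 3 each). Both were named after their values were seen. Substrates of IRE1 mRNA decay had 0 of 7 called, with 5 positive and 2 negative signs. ATF6 processing genes had 0 of 9 called, with 4 positive and 5 negative signs. IRE1 regulators had 0 of 6 called (3 positive, 3 negative) and ER-phagy receptors 0 of 5 (3 positive, 2 negative). Other ERAD genes had 0 of 21 called, with Erlin1, which targets inositol trisphosphate receptors for removal, at a log2 fold change of -0.16 and Tmub1, an ERAD ligase partner, at 0.19. Other disulfide enzymes had 0 of 15 called, at a median log2 fold change of 0.060. Glycan quality control had 0 of 10, translocation 0 of 17, the oligosaccharyltransferase 0 of 10, the proline isomerases 0 of 8, and ER export and retrieval 0 of 19.

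Chaperones of the cytosol and mitochondria, in a list that also holds the heat shock factor gene Hsf1, had 0 of 14 called and a median log2 fold change of 0.027. Hspa1b of this list was at 85.1, 81.6 and 91.4 normalized counts in STING KO, against 73.9, 87.8 and 77.5 in control. The groups of Hspa1b overlapped (log2 fold change 0.11, SE 0.12). Whether Hspa1b and Hspa1a share reads was not tested. Hspa1a, an inducible HSP70 with fewer counts, was at 22.8, 23.9 and 24.1 normalized counts in STING KO, against 11, 19 and 13.9 in control. Its groups did not overlap (log2 fold change 0.72, unadjusted p = 0.022, limma adjusted p = 0.738).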

How the data were processed

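The values are those of 1 table deposited by the authors, whose 6 sample columns hold normalized counts (a signal: gene counts divided by a size factor of each library). Within 0.01, 100% of nonzero values were multiples of the library's own step, which lay between 0.990 and 1.004. Per the file headers, the table also holds the authors' log2 fold change (STING KO over control), its standard error, the Wald score, the p-value and the adjusted p-value. The submitters' processing notes name HISAT2 2.0.4, Bowtie2 2.2.5, RSEM 1.2.12, DESeq2 1.4.5 and the builds GRCm38 and mm10, with no role or order. No annotation or strand setting is given in the sources used here, and reads of overlapping or near-identical genes may be shared. Exons of 13 of the described genes overlap another annotated gene.

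The first row of each of 27507 identifiers was used, and 314 repeat rows were not. GENCODE M21 gave coordinates, transcript lengths and GC content, with the longest basic transcript standing for a gene.

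Using R 4.3.3, limma 3.58.1 (trend on the mean) was fitted on log2(normalized count + 0.1) for the 12408 genes that reached 10 in 3 or more libraries. Fold changes on this scale can understate those of low genes. A gene was called where p, adjusted over all genes tested (Benjamini-Hochberg), was at or under 0.05. The main fit did not pair libraries by replicate number. Deviations within a number correlated at -0.183, -0.18 and -0.488. They also hold the length pattern of single libraries, so they cannot show whether same-numbered libraries were handled together. Pairs of libraries within a group differed by more than counting noise, with chi-square divided by its degrees of freedom between 2.41 and 10.6. No library was treated as a repeat. The chi-square also holds the length pattern of single libraries and the hepatocyte transcripts, so it cannot exclude technical repeats. Alternatives were the pseudocount, the filter, TMM and upper-quartile scaling, limma-voom, the authors' test, a replicate block and leaving out libraries. The correction for length and GC content (splines with 4 degrees of freedom) and the fit without STING KO replicate 3 and control replicate 2 were added after seeing the data.

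The members, lists and tests were chosen with earlier results of these data known. Genes described in full are the sensors, Hspa5, Xbp1 and Ddit3, the 4 largest fold changes in each direction, any gene with an unadjusted p at or under 0.05 and the gene with most counts of each arm, with genes of other lists taken from the 2 smallest p of each. Hsp90b1, Pdia3, Pdia4, Pdia6, Canx, Herpud1, Syvn1 and Hspa1b were added after their values were seen.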

Additional observations from a re-analysis of the deposited data

How the results depend on the processing

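The count of 0 called members held under each of the 17 alternatives run. The planned edgeR test was not run, because the steps of the values lie too close to 1 to be accepted as recovered reads. Of all genes, 32 were called lower and 0 higher. Without the 2 libraries that hold hepatocyte transcripts 12 were called lower, and with the replicate block 18, with no gene called higher in either. Without 1 library the lower calls ran from 21 (without control replicate 1) to 35, and the higher calls from 0 to 2 (without control replicate 2). The correction for length and GC content gave 53 lower and 8 higher. Leaving out STING KO replicate 3 and control replicate 2 gave 90 lower and 40 higher, and the authors' deposited test gave 6 higher. The cause of these differences was not tested.

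The median log2 fold change of the members was 0.018. It was -0.004 without STING KO replicate 3 and control replicate 2, and it ran from -0.004 to 0.043 when 1 library was left out. The summed share of the members in STING KO was 102.6% of control, and 102.2% to 103.3% with 1 library left out.

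Of 289 values of the 17 named members under an alternative, 273 kept their sign and 0 were called, though their sizes moved with single libraries, as given with the results. The other 16 belong to 6 genes with log2 fold changes near 0. Ddit3 was at 0.005 under upper-quartile scaling, and at 0.001, 0.06 and 0.08 without STING KO replicate 1, STING KO replicate 2 and control replicate 2, and at -0.10 at the lowest, without STING KO replicate 3. Atf6 was at 0.008 without STING KO replicate 3, at 0.005 without the hepatocyte libraries and at 0.05 with the correction, and at -0.11 without control replicate 2. Eif2ak3 was at 0.05 without STING KO replicate 3 and at 0.003 without control replicate 3, and at -0.12 without control replicate 2. Atf6b was at -0.003 without STING KO replicate 3 and control replicate 2 and at -0.02 with the correction, and Calr was at -0.01 without STING KO replicate 3 and at 0.07 without STING KO replicate 2. Derl1 was at -0.02 without STING KO replicate 3, 0.04 without STING KO replicate 2, -0.004 without control replicate 3, -0.009 without the hepatocyte libraries and -0.01 without STING KO replicate 3 and control replicate 2. Of 221 medians of other lists, 204 moved by less than the spread between replicates.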
